A study of Mus musculus with 16 samples.

Results

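The question addressed here was how the transcriptional response to isoproterenol differed between DPP4_pos and DPP4_neg progenitors of mouse inguinal white fat, and which genes responded in a single population or moved in opposite directions. All 16 libraries of the series entered the comparison. They came from PDGFRb+ cells sorted out of subcutaneous fat of C57BL/6 mice, which were separated into DPP4_neg and DPP4_pos APCs (the name the labels use), cultured in serum-containing medium, and given PBS as vehicle or isoproterenol for 4 h. Each of the 4 groups (DPP4_neg vehicle, DPP4_neg isoproterenol, DPP4_pos vehicle, DPP4_pos isoproterenol) held 4 libraries. The labels give the dose as 10 mM, a unit that no file allows to be checked. They do not say whether the 4 libraries of a group came from separate mice, sorts or cultures, so a p-value here speaks only of the spread among these libraries, and that spread may be technical. The groups are bulk cultures, in which more RNA per cell and more cells of a type cannot be told apart.

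Isoproterenol activates beta-adrenergic receptors. In fat, these receptors receive noradrenaline from sympathetic nerves, raise cyclic AMP through the stimulatory G protein, and activate protein kinase A and the transcription factor CREB, which induces an early wave of genes that includes Nr4a1 and Crem. In progenitors, cyclic AMP also opposes the actin-dependent transcription factors SRF with its MRTF cofactors and YAP with TEAD partners. DPP4, a surface peptidase, marks progenitors of the fibrous interstitium of subcutaneous fat, and DPP4-negative progenitors include cells closer to the adipocyte lineage.

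For each gene, the difference of responses was the log2 change in DPP4_pos minus the log2 change in DPP4_neg APCs, on the scale log2(normalized count + 1). A positive difference therefore means a larger rise or a smaller fall in DPP4_pos. Of 27179 entries, 14005 had a normalized count of at least 10 in at least 4 libraries and were tested with limma. A difference was called at a Benjamini-Hochberg adjusted p under 0.05, and all adjusted p-values below come from that fit over 14005 genes. Libraries held 9823799 to 28627223 reads assigned to genes, and the DPP4_pos isoproterenol group, at 9823799 to 16563940, was the shallowest.

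Dpp4 itself followed the labels, with 15.3, 23.4, 24.6 and 20.98 normalized counts in the DPP4_neg vehicle and 2853, 2937, 3227 and 3194 in the DPP4_pos vehicle libraries, and all 16 libraries expressed Pdgfrb at 1987 or more. Some libraries stood apart in interferon-stimulated genes, among them replicate 1 of DPP4_pos vehicle and replicate 2 of DPP4_neg isoproterenol. Their summed counts of 34 such genes were 59592 and 22977, against 27661 to 42224 and 13576 to 15817 in the other libraries of their groups. Replicate 3 of DPP4_pos isoproterenol, at 29164 against 19858 to 21503, was also the highest of its group. The summed macrophage and leukocyte markers were 1512 in the first (651.8 to 760.2 in its group) and 1907 in the second (773.4 to 2098). Of 21 such markers, 15 were tested, 1 was called higher and 1 lower in the difference, and S100a9 was listed at 0 in every library. Interferon genes are also given without the first-named pair.

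To show what the main groups of genes carry upstream of their starts, RefSeq promoters (GRCm38.p6, 250 bases before to 50 after the start, written 5' to 3' on the gene's strand) were searched on both strands. Motifs were the cAMP response element TGACGTCA and its short form TGACG (contained in the former), the AP-1 site TGANTCA, the core of the interferon-stimulated response element, the NF-kB site, the CArG box bound by SRF, and the composite ATF4-C/EBP site TGATGNAA, which was added after the data were seen. Capitals mark every match other than the short form. The promoters printed are chosen examples that each hold a match, and the shares over classes and lists are given below. Lmcd1 (chr6:112273508-112273807, plus strand) and Nupr1 (chr7:126625421-126625720, minus strand) moved in opposite directions. Lmcd1 holds a CArG box and a cAMP response element, and Nupr1 an ATF4-C/EBP site. In their class, each of these motifs was in only 4 of 61 promoters (6.56%). Srf (chr17:46556113-46556412, minus strand; 2 CArG boxes) fell in DPP4_neg only, and Ifit1 (chr19:34640639-34640938, plus strand; 2 interferon cores) fell in DPP4_pos. Slc7a11 (chr3:50443564-50443863, minus strand; 2 ATF4-C/EBP sites) and Cxcl1 (chr5:90890995-90891294, plus strand; 1 NF-kB site) rose in both and more in DPP4_pos.
Lmcd1: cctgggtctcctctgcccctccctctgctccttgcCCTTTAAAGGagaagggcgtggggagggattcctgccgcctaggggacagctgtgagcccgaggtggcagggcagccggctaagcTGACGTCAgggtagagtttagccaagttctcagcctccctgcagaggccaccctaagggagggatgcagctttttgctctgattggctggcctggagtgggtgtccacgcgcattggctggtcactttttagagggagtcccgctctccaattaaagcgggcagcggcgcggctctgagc
Nupr1: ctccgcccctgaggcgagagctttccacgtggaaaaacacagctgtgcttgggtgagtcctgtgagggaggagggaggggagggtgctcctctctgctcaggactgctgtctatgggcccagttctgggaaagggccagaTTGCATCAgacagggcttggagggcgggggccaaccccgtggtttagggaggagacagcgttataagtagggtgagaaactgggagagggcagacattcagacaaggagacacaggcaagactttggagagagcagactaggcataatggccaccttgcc
Srf: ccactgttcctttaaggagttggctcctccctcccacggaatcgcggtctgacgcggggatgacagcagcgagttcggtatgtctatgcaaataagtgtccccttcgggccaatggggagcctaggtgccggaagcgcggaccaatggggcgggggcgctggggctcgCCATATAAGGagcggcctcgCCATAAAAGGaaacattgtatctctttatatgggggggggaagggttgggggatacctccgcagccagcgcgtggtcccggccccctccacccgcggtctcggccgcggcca
Ifit1: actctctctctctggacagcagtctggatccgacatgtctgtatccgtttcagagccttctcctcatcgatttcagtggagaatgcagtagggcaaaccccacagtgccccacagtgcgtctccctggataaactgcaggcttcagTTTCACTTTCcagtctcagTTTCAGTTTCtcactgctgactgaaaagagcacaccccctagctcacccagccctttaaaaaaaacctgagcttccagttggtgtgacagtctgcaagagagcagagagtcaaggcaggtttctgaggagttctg
Slc7a11: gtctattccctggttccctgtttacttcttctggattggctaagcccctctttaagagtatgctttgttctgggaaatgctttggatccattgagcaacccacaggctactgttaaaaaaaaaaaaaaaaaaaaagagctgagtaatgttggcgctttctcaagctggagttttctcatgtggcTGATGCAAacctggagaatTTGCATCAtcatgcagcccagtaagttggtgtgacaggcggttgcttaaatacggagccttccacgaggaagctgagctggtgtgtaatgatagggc
Cxcl1: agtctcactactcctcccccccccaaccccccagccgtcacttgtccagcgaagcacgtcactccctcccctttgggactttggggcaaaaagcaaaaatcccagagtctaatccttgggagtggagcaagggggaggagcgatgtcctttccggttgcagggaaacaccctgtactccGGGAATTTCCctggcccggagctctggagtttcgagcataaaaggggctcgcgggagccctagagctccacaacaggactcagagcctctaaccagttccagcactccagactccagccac

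The responses of the populations differed for most genes. A difference was called for 8765 genes (62.6% of those tested), of which 4423 (31.6%) were higher and 4342 (31%) lower in DPP4_pos. With every library scaled to the same total, which moved the median difference of all genes by -0.26, the split was 2557 higher and 6828 lower. At a size of at least 1 in log2, 923 genes (6.59%) were higher and 1267 (9.05%) lower. The median standard error of the difference was 0.10. Isoproterenol changed 9199 genes (65.7%) in DPP4_neg and 11581 (82.7%) in DPP4_pos, and 8221 in both. Among these 8221, the direction was the same for 7329 (89.1%) and opposite for 892. Across the 14005 genes, the DPP4_pos response followed the DPP4_neg response with r = 0.756 and a slope of 1.03, and its spread (SD) was 1.36 times larger. These 2 sets of log2 changes share no library, and genes are not independent replicates. For 316 of the called genes (3.61%), the difference of responses had the other sign when taken on normalized counts instead of their log2.

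Genes were then sorted by the pattern of both responses. Opposite directions required called responses of at least 0.5 in log2 on each side, and a response in 1 population required a called change of at least 1 there with the 95% interval of the other population inside -0.5 to 0.5. In all, 179 genes (1.28%) moved in opposite directions, 91 (0.65%) up in DPP4_neg and down in DPP4_pos, and 88 (0.628%) down in DPP4_neg and up in DPP4_pos. A further 573 genes (4.09%) responded in DPP4_pos alone by this definition, 333 (2.38%) upward and 240 (1.71%) downward. In DPP4_neg alone there were 91 (0.65%), 40 (0.286%) upward and 51 (0.364%) downward. The other population was not always still: of the 333, 240, 40 and 51 genes, its small response was called in 233, 101, 19 and 30. Among genes that moved the same way with a difference of at least 1, 332 (2.37%) rose and 483 (3.45%) fell more in DPP4_pos, and 61 (0.436%) rose and 70 (0.5%) fell more in DPP4_neg. With all libraries at the same total, 159 genes rose and 525 fell in DPP4_pos alone.

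**Figure D1:**
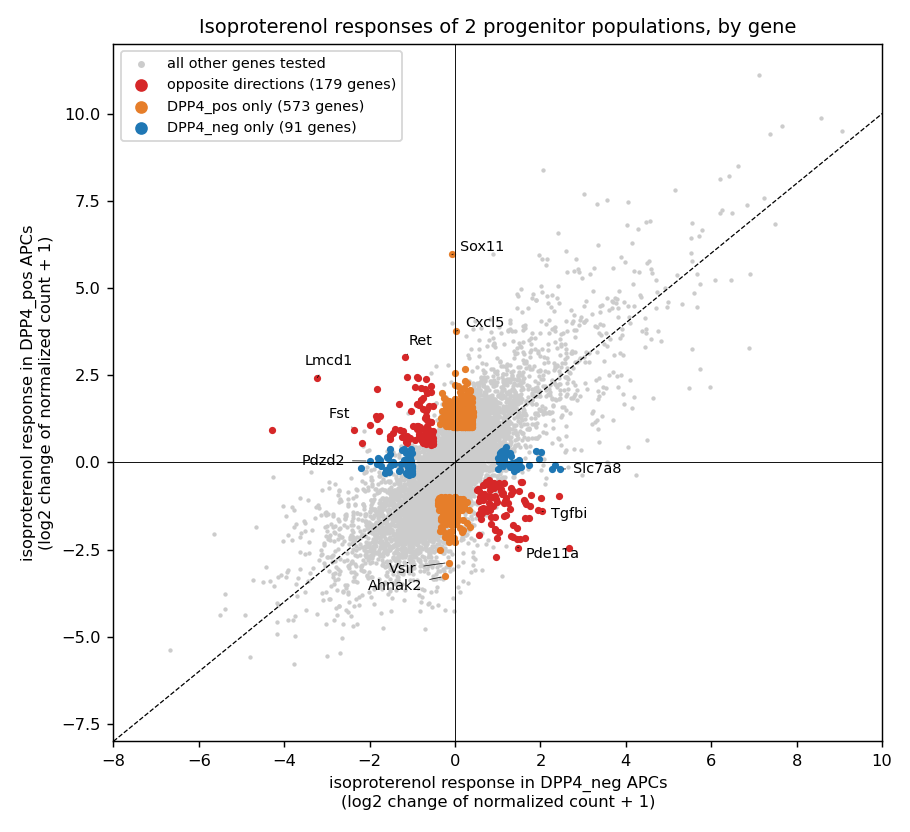
Log2 change under isoproterenol in DPP4_neg APCs (horizontal) and DPP4_pos APCs (vertical) for each of 14005 tested genes, with 179 genes of opposite direction in red, 573 of a DPP4_pos response in orange and 91 of a DPP4_neg response in blue. The dashed line marks equal responses; most genes lie near it or on the steeper side, and Sox11 lies highest above the zero line among the orange points.

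At the borders of these definitions, Arhgef19 changed by 0.80 and -0.51 in DPP4_neg and DPP4_pos and was counted as opposite, while Ap5s1, at 0.57 and -0.49, was not. In the reverse class Gdf6 was inside, with -0.51 in DPP4_neg, and Dock9, at -0.55 there and just under 0.5 in DPP4_pos, was outside. Among genes with a rise in DPP4_pos alone, Lmbrd2 just reached the required size of 1 and Nmd3 fell just short. In the DPP4_neg classes, Shc1 (1.01) was just inside, and Pde1a (0.99) and Amy1 (-0.99) just outside.

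Genes that fell in DPP4_neg and rose in DPP4_pos included signalling molecules, enzymes of lipid and retinoid metabolism and a LIM-domain regulator. Lmcd1, which encodes a LIM-domain protein that represses GATA6, had the largest difference of this class. It stood at 675, 740.0, 715 and 708 normalized counts in DPP4_neg vehicle and at 81.8, 94.0, 64.7 and 63.0 in DPP4_neg isoproterenol libraries. In DPP4_pos it went from 18.8, 21.6, 16.8 and 22.0 to 108, 122, 109.6 and 103. No vehicle library overlapped an isoproterenol library in either population, and DPP4_pos lay far below DPP4_neg under vehicle and above it under isoproterenol. The log2 changes were -3.23 ± 0.12 and 2.43 ± 0.12, and the difference was 5.66 ± 0.17 (adjusted p = 1.1e-16).

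Ret, the receptor tyrosine kinase for GDNF-family ligands, had 868, 939, 902 and 830.2 counts in DPP4_neg vehicle and 357, 414, 393 and 394 in DPP4_neg isoproterenol. The DPP4_pos libraries held 22.4, 23.8, 23.9 and 20.3 under vehicle and 182, 179, 202 and 197 under isoproterenol. Here the levels moved toward each other and kept their order, with DPP4_neg higher throughout. The difference was 4.20 ± 0.11 (adjusted p = 7.9e-18). Cyp26b1, an enzyme that degrades retinoic acid, fell from 2954, 3006, 3081 and 2991 to 1000.1, 819, 872 and 900.4 in DPP4_neg. Its DPP4_pos libraries rose from 643, 595, 558 and 709 to 1576, 1596, 1448 and 1731, which lay above every DPP4_neg isoproterenol library. Its difference was 3.09 ± 0.09 (adjusted p = 1.1e-16).

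Follistatin (Fst), a secreted protein that binds activins, fell from 4558, 4938, 4945 and 4614 to 920.0, 913, 991 and 896 in DPP4_neg and rose from 1525, 1569, 1584 and 1511 to 3026, 3146, 3097 and 2565 in DPP4_pos. The populations exchanged order without overlap, and the difference was 3.29 ± 0.07 (adjusted p = 1.3e-18). Its ligand partner Inhba, which encodes the activin A subunit, rose in both, by 0.43 ± 0.10 and 3.82 ± 0.10. Among growth factors, Fgf18 changed by -1.83 ± 0.07 and 1.24 ± 0.07 and Hbegf, an EGF-family ligand, by -0.71 ± 0.14 and 2.10 ± 0.14. Bmp4, a differentiation signal of progenitors, changed by -4.28 ± 0.30 and 0.93 ± 0.30, but with 9 reads in all of the DPP4_neg isoproterenol group its size there depends on the pseudocount. The monocyte attractant Ccl2 changed by -0.68 ± 0.10 and 0.84 ± 0.10, and the FGF receptor gene Fgfr2 by -0.59 ± 0.08 and 0.80 ± 0.08. The lipogenic enzymes Fasn (-0.78 ± 0.04 and 0.62 ± 0.04) and Scd1 (-0.51 ± 0.06 and 0.89 ± 0.06) were also in this class.

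The stress regulator Nupr1 and the cationic amino acid transporter Slc7a1 moved the same way. Nupr1 went from 393, 395, 361 and 388 to 253, 254, 319 and 223 in DPP4_neg and from 214, 213, 189.5 and 226 to 836, 949.5, 869.5 and 746 in DPP4_pos. Its difference was 2.56 ± 0.12 (adjusted p = 1.8e-13). Slc7a1 fell by 0.65 on the log2 scale in DPP4_neg and rose in DPP4_pos, a difference of 2.65 ± 0.08 (adjusted p = 2.5e-16). The adhesion molecule Chl1 (-1.30 ± 0.10 and 1.68 ± 0.10), Prr5l, a partner of the mTORC2 kinase complex (-1.82 ± 0.16 and 2.10 ± 0.16), Pxdc1 (-1.12 ± 0.09 and 2.46 ± 0.09) and Zbtb7c (-1.85 ± 0.23 and 1.32 ± 0.23) completed the genes chosen by the size of the smaller response. Under vehicle, 76 of the 88 genes of this class were higher in DPP4_neg, against 51% of all genes tested. In 47 of them, isoproterenol reversed the order of the populations without overlap of libraries, against 12.8% of all genes. The same vehicle and isoproterenol libraries set the class and these orders, so part of the excess over all genes is built in.

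**Figure D2:**
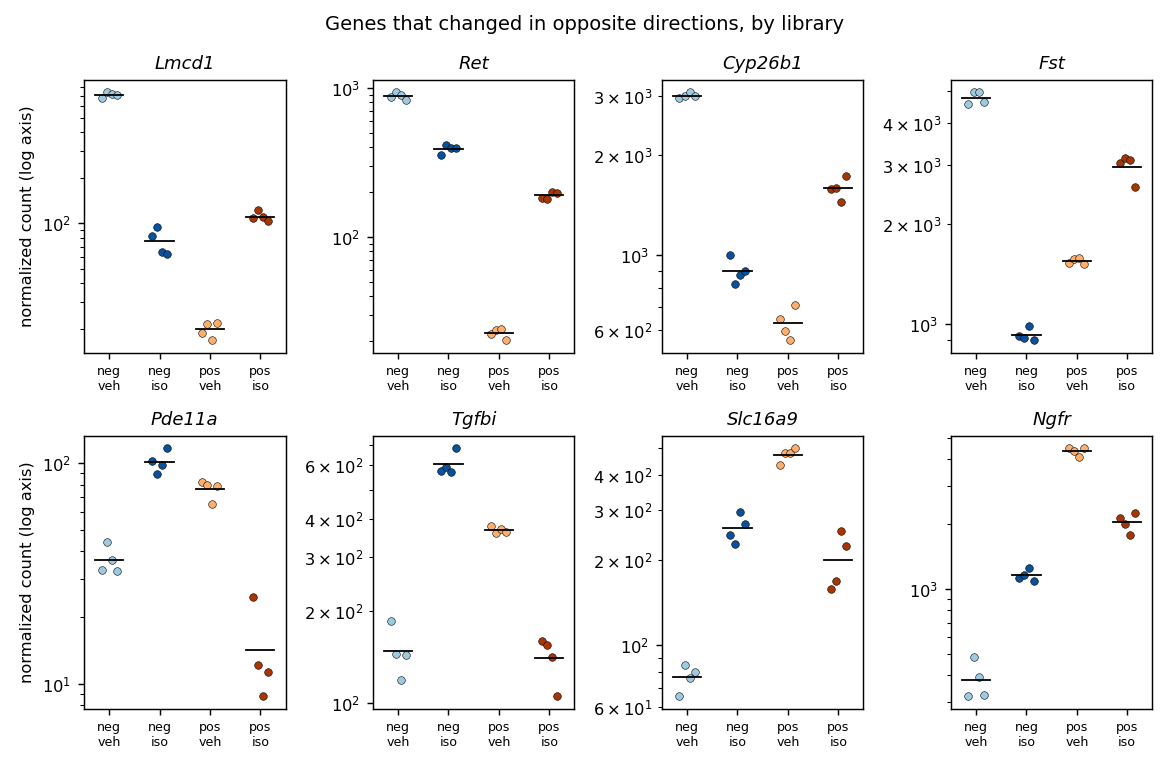
Normalized counts (log axis) of 8 genes that moved in opposite directions, in DPP4_neg (neg) and DPP4_pos (pos) APCs under vehicle (veh) and isoproterenol (iso). Each point is 1 library and each bar the mean of 4; the top row fell in DPP4_neg and rose in DPP4_pos, as for Lmcd1, and the bottom row did the reverse, as for Tgfbi.

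Among genes that rose in DPP4_neg and fell in DPP4_pos, Pde11a had the largest difference of those chosen by the size of the smaller response. It encodes a phosphodiesterase that hydrolyses cyclic AMP and cyclic GMP. Its counts went from 32.8, 43.8, 36.4 and 32.5 to 103, 89.6, 97.8 and 117 in DPP4_neg and from 82.5, 79.5, 65.5 and 78.6 to 24.7, 12.2, 8.77 and 11.3 in DPP4_pos. The groups did not overlap, and the highest DPP4_pos isoproterenol library was below every DPP4_neg library. The difference was -3.91 ± 0.30 (adjusted p = 3.1e-10).

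Tgfbi, a matrix protein induced by TGF-beta, rose from 185, 145, 119 and 143 to 574, 591, 573 and 683 in DPP4_neg. It fell from 379, 359.7, 373 and 363 to 159.5, 155, 142 and 105 in DPP4_pos, where the isoproterenol libraries came down to the level of unstimulated DPP4_neg cells. The difference was -3.44 ± 0.17 (adjusted p = 1.8e-13). Ngfr, the low-affinity neurotrophin receptor, went from 319, 485, 391 and 325 to 1122, 1162, 1251 and 1095 and from 4467, 4351, 4086 and 4467 to 2136, 2002, 1784 and 2246. Its levels converged and kept their order, with a difference of -2.72 ± 0.13 (adjusted p = 1.8e-13). The transporter Slc16a9 changed by 1.75 ± 0.12 in DPP4_neg and -1.26 ± 0.12 in DPP4_pos. Gldc, of the mitochondrial glycine cleavage system, changed by 0.99 ± 0.09 and -1.14 ± 0.09, and Plekha6 by 1.66 ± 0.16 and -1.20 ± 0.16. The cell junction gene Ppl and the aldehyde oxidase gene Aox3 had few reads in DPP4_neg vehicle (31 and 28 over 4 libraries), so their rises there rest on low counts.

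From the gene lists, this class also held the AP-1 subunit Jun (0.52 ± 0.05 and -0.79 ± 0.05), the stem cell antigen Cd34 (0.73 ± 0.11 and -0.55 ± 0.11), the adrenomedullin receptor partner Ramp2 (0.60 ± 0.10 and -1.03 ± 0.10), the transcription factor Etv1 (0.62 ± 0.20 and -1.49 ± 0.20) and Tmem26, a surface marker of beige fat (0.79 ± 0.13 and -1.15 ± 0.13). Jun stood at 1058, 1047, 1121 and 1153 and then 1634, 1576, 1479.6 and 1582 counts in DPP4_neg, and at 1120.3, 999, 1045 and 1018 and then 598, 613, 583 and 626 in DPP4_pos. Vehicle levels of the populations overlapped for this gene, and isoproterenol levels were separated. Its relative Junb rose in both, by 1.29 ± 0.04 and 2.78 ± 0.04. Of the 91 genes, 78 were higher in DPP4_pos under vehicle (49% of all genes tested), and in 31 the order reversed without overlap (12.8% of all genes). The same vehicle and isoproterenol libraries again set the class and these orders.

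The largest response confined by these definitions to DPP4_pos was that of Sox11, a transcription factor of the SOX family known from neural and mesenchymal development. Its libraries held 252, 252, 235 and 246 counts in DPP4_neg vehicle and 273, 236, 219 and 211 in DPP4_neg isoproterenol, and these ranges overlapped. In DPP4_pos, Sox11 went from 26.0, 30.5, 29.2 and 22.0 to 1757, 1843, 1600.2 and 1719. Unstimulated DPP4_pos cells therefore lay below all other groups and stimulated ones above. The changes were -0.07 ± 0.09 (adjusted p = 0.49) and 5.96 ± 0.09, with a difference of 6.04 ± 0.13 (adjusted p = 1.2e-18). Cxcl5, a chemokine that attracts neutrophils, stayed between 134 and 219 in the 8 DPP4_neg libraries and went from 629, 573, 536 and 493 to 7366, 8284, 7922 and 6842 in DPP4_pos. The difference was 3.74 ± 0.17 (adjusted p = 6.3e-14).

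Other genes with a rise in DPP4_pos included Srgn, the proteoglycan core protein serglycin, with a difference of 2.55 ± 0.13, and Car8, a carbonic anhydrase relative without catalytic activity (changes of 0.23 ± 0.11 in DPP4_neg and 2.66 ± 0.11 in DPP4_pos). The large neutral amino acid transporter Slc7a5 fell slightly in DPP4_neg and rose in DPP4_pos (-0.31 ± 0.06 and 1.99 ± 0.06). Its counts went from 2314, 2094, 2121 and 2288 to 1876, 1888, 1565 and 1819 and from 703, 592, 676 and 672 to 2508, 2627, 2768 and 2614, so the lower population became the higher one. Gldn, which encodes gliomedin, changed by 0.01 ± 0.10 and 2.23 ± 0.10. Pla2g4a, the phospholipase that releases arachidonic acid, changed by 0.29 ± 0.07 and 2.27 ± 0.07, and the downstream cyclooxygenase Ptgs2 rose in both, by 2.03 ± 0.13 and 5.82 ± 0.13. The urokinase receptor gene Plaur (0.01 ± 0.08 and 1.82 ± 0.08), the kinase phosphatase gene Dusp16 (-0.07 ± 0.06 and 1.67 ± 0.06) and Hsp90aa1 (0.00 ± 0.04 and 1.27 ± 0.04) were within the bound in DPP4_neg. Of the 333 genes, 285 were lower in DPP4_pos than in DPP4_neg under vehicle (51% of all genes), and in 213 isoproterenol reversed the order without overlap (12.8% of all genes). Here too the same vehicle and isoproterenol libraries set both the class and the order.

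Among falls in DPP4_pos alone, Ahnak2, a large scaffold protein, had the largest difference. It had 705, 602, 649.6 and 631 counts in DPP4_neg vehicle and 531, 609, 530.0 and 517 in DPP4_neg isoproterenol. In DPP4_pos it dropped from 2229.8, 2230.2, 2151 and 2331 to 259.5, 258, 216 and 195, below every DPP4_neg library. The difference was -3.03 ± 0.11 (adjusted p = 1.3e-15). Vsir, the immune checkpoint VISTA, went from 619, 603, 552 and 607 to 73.0, 88.9, 87.7 and 73.3 in DPP4_pos and changed by -0.15 ± 0.08 in DPP4_neg (adjusted p = 0.099). The homeobox factor Prrx2 changed by -2.52 ± 0.05 in DPP4_pos and -0.36 ± 0.05 in DPP4_neg. Kctd12 (-1.86 ± 0.06), the scaffold gene Mpp2 (-2.28 ± 0.15) and the actin-binding Ablim1 (-1.98 ± 0.06) completed the leading 6, with DPP4_neg changes of 0.34, 0.01 and 0.16.

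Both platelet-derived growth factor receptors belonged here. Pdgfra, used widely to mark fat progenitors, went from 13335, 13559, 13491 and 13018 to 10953, 9704, 10786 and 10944 in DPP4_neg and from 33859, 33346, 33371 and 33607 to 10883, 10760.1, 10922 and 9989 in DPP4_pos. Its DPP4_pos level under isoproterenol thus reached that of DPP4_neg, and the ranges overlapped there. Pdgfrb, by which the cells were sorted, changed by -0.33 ± 0.05 and -1.85 ± 0.05, with a difference of -1.52 ± 0.07 (adjusted p = 2.4e-14). Zfp423, a transcription factor of preadipocyte commitment, changed by 0.18 ± 0.11 (adjusted p = 0.14) and -1.95 ± 0.11. Matrix genes of the class were Eln, Col15a1 and Emilin1, with DPP4_pos changes of -1.66 ± 0.09, -1.13 ± 0.04 and -1.05 ± 0.04. Cpt2, which brings fatty acids into mitochondrial oxidation, changed by -1.58 ± 0.05. Under vehicle, 185 of the 240 genes were higher in DPP4_pos (49% of all genes). In 110 of them isoproterenol reversed the order without overlap (12.8% of all genes). Among genes that responded in DPP4_neg alone, it did so in 9 of 40 that rose and 15 of 51 that fell. The same libraries set these classes and the orders.

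**Figure D3:**
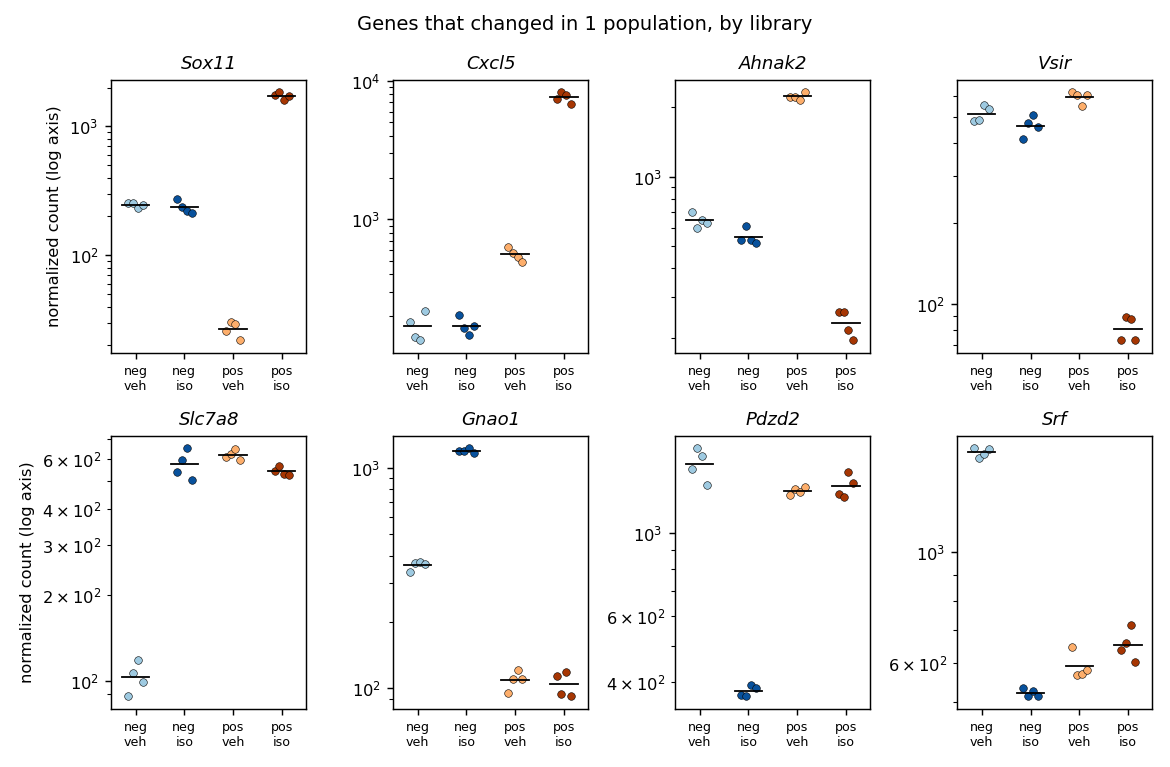
Normalized counts (log axis) of 8 genes that responded in 1 population, in DPP4_neg (neg) and DPP4_pos (pos) APCs under vehicle (veh) and isoproterenol (iso). Each point is 1 library and each bar the mean of 4; the top row changed in DPP4_pos, as for Sox11, and the bottom row in DPP4_neg, as for Srf.

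The rises in DPP4_neg alone were few. Slc7a8, an amino acid transporter of the same family as Slc7a5, went from 88.5, 107, 118 and 99.5 to 537, 595, 651 and 507 in DPP4_neg and from 608, 621, 649 and 594 to 542, 564, 532 and 526 in DPP4_pos. Stimulated DPP4_neg cells reached the level that DPP4_pos cells held already. The difference was -2.65 ± 0.11 (adjusted p = 2.0e-14). Gnao1, the alpha subunit of the Go protein, rose from 336, 370.0, 374 and 365 to 1194, 1192, 1224 and 1160.3 in DPP4_neg, while the 8 DPP4_pos libraries lay between 92.1 and 121. The sulfotransferase gene Chst1 changed by 2.27 ± 0.08 and -0.20 ± 0.08, the nucleotide exchange factor gene Mcf2l by 2.33 ± 0.13 and -0.06 ± 0.13, Tmem158 by 2.02 ± 0.09 and 0.29 ± 0.09, and the chloride channel gene Clcn2 by 1.54 ± 0.09 and -0.13 ± 0.09. Ppargc1a, a coactivator of mitochondrial biogenesis and thermogenesis, was in this class at low counts. Its libraries held 51.9, 57.4, 47.0 and 49.4 and then 119.9, 123, 117 and 97.1 in DPP4_neg, and 31.4, 40.9, 44.3 and 40.6 and then 47.2, 47.0, 45.3 and 41.3 in DPP4_pos, where the groups overlapped. The difference was -0.93 ± 0.18 (adjusted p = 1.7e-04).

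Falls in DPP4_neg alone included regulators of the cytoskeleton. Pdzd2, a PDZ-domain protein, went from 1475, 1675, 1600.0 and 1338 to 370.1, 367, 393 and 387 in DPP4_neg, while the DPP4_pos libraries lay between 1246 and 1451. The forkhead factor Foxc1 fell from 2241, 2357, 2520.2 and 2247 to 517, 534, 468 and 515 in DPP4_neg and went from 185, 164, 195 and 172 to 142, 162, 162 and 169 in DPP4_pos, where the ranges overlapped. Srf, the serum response factor, went from 1618, 1549, 1575 and 1616 to 534, 514, 527 and 516 in DPP4_neg. In DPP4_pos it started at 647, 569, 569 and 579.6 and stood at 637, 657, 713 and 603 after isoproterenol, above the level to which DPP4_neg had fallen. The difference was 1.75 ± 0.07 (adjusted p = 1.2e-14). Myo10, the motor protein of filopodia, changed by -1.53 ± 0.04 and 0.39 ± 0.04, the ephrin receptor gene Epha4 by -1.81 ± 0.08 and 0.14 ± 0.08, and the retinoic acid receptor gene Rarb by -1.53 ± 0.10 and -0.10 ± 0.10. C3, the central complement component, fell from 13303, 15309, 14169 and 12359 to 3799, 4238, 3628 and 3938 in DPP4_neg and stood between 45721 and 52682 in all DPP4_pos libraries. Actg1 and Actb, the cytoplasmic actins, were called in this class too, but reads of such near-identical genes can be shared.

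Gene lists described where these differences gathered. Beside each list, the reference is the share of all genes tested, 31.6% higher and 31% lower, and the median difference of -0.02. The integrated stress response and amino acid genes, a program driven by ATF4, were higher in 31 and lower in 3 of 36 tested, with a median difference of 0.96. In DPP4_neg 20 fell and 12 rose, and in DPP4_pos 27 rose and 6 fell, where 32.1% and 39.4% of all genes rose and 33.6% and 43.3% fell. Of the list, 10 members rose in DPP4_pos alone and 2 moved in opposite directions. Atf4 itself changed by 0.31 and 1.38, asparagine synthetase Asns by -0.25 and 1.29, the serine synthesis gene Psat1 by -0.32 and 1.29, and the mitochondrial folate enzyme Mthfd2 by 0.08 and 2.19. Slc7a11, the cystine importer, went from 231, 192, 196 and 190.1 to 2193, 1949, 2009.6 and 1928 in DPP4_neg and from 94.1, 76.5, 86.8 and 83.6 to 14118, 14649, 16544 and 13120.1 in DPP4_pos. The difference was 4.09 ± 0.10 (adjusted p = 7.9e-18). Exceptions were Gdf15, a stress-induced hormone (0.96 and 0.01), Stc2 and Ddit3, whose differences were lower in DPP4_pos.

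Chaperones of the heat shock list were split similarly. Of 22 heat shock genes tested, 19 were higher and 1 lower, with a median difference of 0.68. Hsp90aa1, Hspa8 and Hspe1 rose in DPP4_pos alone, and Dnajb4 moved in opposite directions (-0.58 ± 0.04 and 0.89 ± 0.04). Of 33 HIF targets and glycolysis genes, 24 were higher and 6 lower (median 0.75). Hk2, which commits glucose to metabolism, rose by 1.58 ± 0.06 and 4.33 ± 0.06, the lactate exporter gene Slc16a3 by 0.62 ± 0.07 and 3.86 ± 0.07, the glucose transporter gene Slc2a1 by 0.72 ± 0.05 and 2.82 ± 0.05, and the oxygen sensor Egln3 by 2.89 ± 0.13 and 5.47 ± 0.13. Of 28 NRF2 targets, 16 were higher and 8 lower (median 0.36). Under quantile normalization 12 NRF2 targets were higher and 11 lower. Txnrd1, thioredoxin reductase, rose by 1.54 ± 0.03 and 3.30 ± 0.03. For ribosomal proteins, 31 of 42 were higher and 0 lower, but under quantile normalization 0 were higher and 23 lower, and with equal totals 0 and 11, so no direction is given for them. The ER chaperones and unfolded protein response genes, 13 higher and 1 lower of 25, likewise turned to 8 and 13 under quantile normalization and to 7 and 13 with equal totals.

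Lists of NF-kB and IL-6 signalling had more higher than lower differences. Of 25 NF-kB pathway and targets genes, 18 were higher and 2 lower (median 0.60), and of 21 genes of the IL-6 family and of JAK-STAT feedback, 17 were higher and 4 lower (median 0.66). Il6 had 118, 135, 149 and 133 counts in DPP4_neg vehicle and 540.1, 713, 532 and 580.2 in DPP4_neg isoproterenol libraries. In DPP4_pos it went from 60.9, 52.8, 62.0 and 60.0 to 2667, 2989.7, 3494 and 2896. Every DPP4_pos isoproterenol library exceeded every other library, and the difference was 3.52 ± 0.13 (adjusted p = 3.2e-15). Cxcl1, a neutrophil attractant, rose from 24.4, 19.5, 23.5 and 29.8 to 183, 182, 158 and 185 in DPP4_neg and from 69.0, 71.3, 72.6 and 77.7 to 3823, 4460.1, 4877 and 3790.2 in DPP4_pos, a difference of 3.01 ± 0.15 (adjusted p = 2.3e-13). Lif rose by 1.45 ± 0.06 and 4.44 ± 0.06 and Il11 by 7.37 ± 0.11 and 9.43 ± 0.11. Il33, an alarmin of fat stroma, rose from 34.4 ± 2.73 to 1897 ± 90.3 normalized counts in DPP4_neg and from 1893 ± 137 to 64967 ± 1446 in DPP4_pos (SD, n = 4). Its log2 rises were 5.74 ± 0.05 and 5.10 ± 0.05, a difference of -0.64 ± 0.08 (adjusted p = 2.2e-07), whereas on counts the rise was larger in DPP4_pos. Of 28 cytokines and chemokines, 11 were higher and 11 lower, with a median of -0.29.

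The cAMP and CREB early response was higher in 22 and lower in 7 of 32 genes (median 0.69), although its members rose in number alike, 26 in each population. Nr4a1, an orphan nuclear receptor, went from 226, 189.9, 202 and 227 to 4666, 5049, 4409 and 4585 in DPP4_neg and from 99.5, 72.1, 56.7 and 90.4 to 9236, 9028, 9620.2 and 9489.6 in DPP4_pos. The difference was 2.42 ± 0.15 (adjusted p = 1.5e-11). Crem, whose short product is a CREB repressor, rose by 4.62 ± 0.06 and 5.42 ± 0.06. The phosphodiesterases that degrade cyclic AMP, Pde4b (2.01 ± 0.16 and 5.07 ± 0.16) and Pde4d (3.70 ± 0.06 and 5.57 ± 0.06), rose more in DPP4_pos, while Pde7b (2.47 ± 0.10 and 1.31 ± 0.10) rose more in DPP4_neg. The zinc-finger factor Egr2 rose from 111, 71.1, 77.8 and 112 to 876, 859, 872 and 819 and from 668, 541, 545 and 606 to 1442, 1162, 1198 and 1240.2, so its difference was -2.12 ± 0.16. Upstream, Adrb3, the beta-3 adrenergic receptor, fell from 1929, 2148, 1982 and 1815 to 61.5, 69.7, 91.5 and 59.1 in DPP4_neg. In DPP4_pos it fell from 809, 767, 817 and 703 to 12.4, 17.4, 19.0 and 13.2. Its log2 difference was -0.77 ± 0.18 (adjusted p = 8.5e-04), whereas on counts the fall was larger in DPP4_neg. For Adrb1 the difference was 0.12 ± 0.43 (adjusted p = 0.83), with a 95% interval of -0.78 to 1.02, which spans differences in both directions at its low counts.

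YAP, SRF and cytoskeleton targets mostly fell, and fell less in DPP4_pos. Of 37 tested, 34 fell and 1 rose in DPP4_neg, 27 fell and 10 rose in DPP4_pos, with medians of -1.10 and -0.62, and the difference was higher in 25 and lower in 5 (median 0.58). Their summed counts went from 628946 to 664856 down to 357863 to 364566 in DPP4_neg, without overlap. In DPP4_pos they were 156214 to 170485 under vehicle and 161206 to 169974 under isoproterenol, which overlapped. Ctgf, a YAP target that codes for a matrix-associated protein, fell from 33308, 31728, 31474 and 33626 to 275, 355, 293 and 354 in DPP4_neg and from 3261, 2714, 2818 and 2899 to 64.0, 94.1, 65.8 and 58.3 in DPP4_pos. The difference was 1.30 ± 0.15 (adjusted p = 1.3e-07). The TEAD factor Tead1 rose in DPP4_pos alone (-0.15 and 1.54). Acta2, smooth muscle actin, fell in both (-0.54 ± 0.06 and -0.62 ± 0.06) from vehicle levels of 99429 ± 4485 and 6126 ± 484 (SD, n = 4). Its difference of -0.08 ± 0.09 was not called (adjusted p = 0.44, 95% interval -0.26 to 0.10), but Acta2 was called lower under quantile normalization (-0.66, adjusted p = 2.4e-05) and with equal totals (-0.34, adjusted p = 0.0013).

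**Figure D4:**
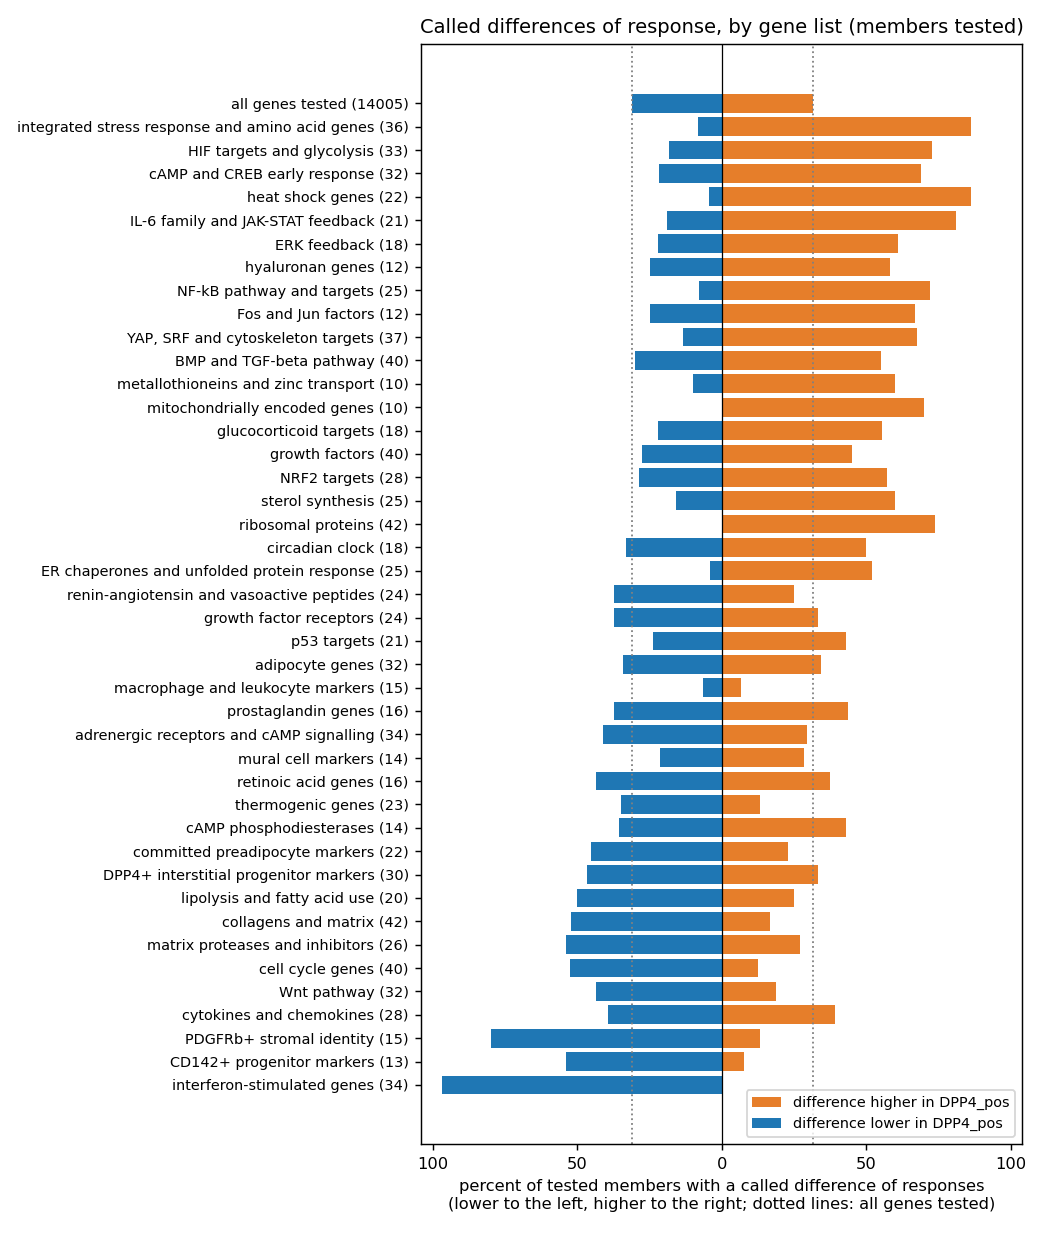
Share of tested members (percent) with a called difference of responses, for each gene list with at least 10 members tested, higher in DPP4_pos to the right and lower to the left, with dotted lines at the shares of all genes tested (31.6% and 31%). Integrated stress response and heat shock genes reach farthest to the right and interferon-stimulated genes farthest to the left, while ribosomal proteins and ER chaperones change side under quantile normalization and with equal totals.

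Interferon-stimulated genes were the list with the lowest median. The difference was lower in 33 and higher in 0 of 34 (median -1.64). In DPP4_neg 8 rose and 7 fell, with a median response of 0.06, and in DPP4_pos 3 rose and 30 fell, with a median of -1.63. Ifit1, an antiviral protein that binds foreign RNA, had 20.6, 40.9, 37.0 and 33.2 and then 33.2, 145, 64.7 and 40.7 counts in DPP4_neg, where the ranges overlapped. In DPP4_pos it went from 3847, 853, 1631 and 1299 to 199.995, 247, 739 and 224, without overlap, and the highest vehicle value was that of replicate 1. The Ifit1 difference was -3.32 ± 0.62 (adjusted p = 9.3e-05), and -2.48 without replicate 1 of DPP4_pos vehicle and replicate 2 of DPP4_neg isoproterenol. Oas2 changed by 0.47 ± 0.48 (adjusted p = 0.4) and -2.76 ± 0.48, and by 0.01 and -2.49 without these libraries. In the whole list, 27 genes were then lower, 0 higher and 7 not called, and the median difference was -1.22. In DPP4_neg 5 then rose and 11 fell, so that the median response turned to -0.18, and in DPP4_pos 3 rose and 29 fell. Leaving out replicate 3 of DPP4_pos isoproterenol instead, 33 interferon-stimulated genes were lower and 0 higher, with a median of -1.86. By the fit over all 16 libraries, Irf7, Isg15, Usp18 and Ifi44 met the definition of opposite directions. Of these genes, only Usp18 did so without replicate 1 of DPP4_pos vehicle and replicate 2 of DPP4_neg isoproterenol. Macrophage marker sums in these libraries are given above, and their part in the result was not tested.

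**Figure D5:**
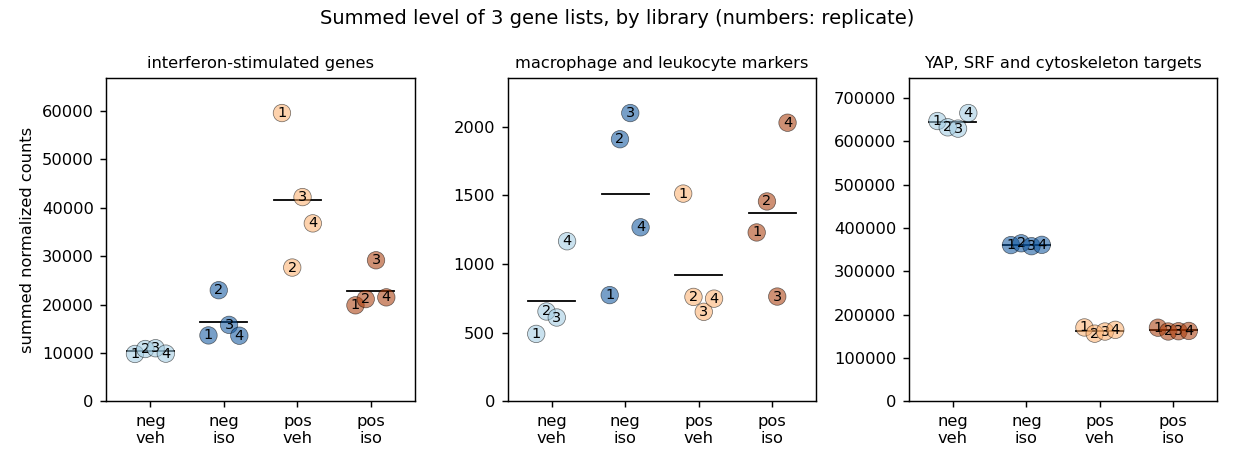
Summed normalized counts of 3 gene lists in each library (numbers are replicates, bars are means of 4) for DPP4_neg (neg) and DPP4_pos (pos) APCs under vehicle (veh) and isoproterenol (iso). Replicate 1 of DPP4_pos vehicle is highest for interferon-stimulated genes, at 59592. The sum of YAP, SRF and cytoskeleton targets falls in DPP4_neg while the DPP4_pos groups overlap, although 27 of 37 members fell in DPP4_pos.

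Lists of stromal identity and matrix had more lower than higher differences. Of 15 genes of PDGFRb+ stromal identity, 12 were lower and 2 higher (median -0.41), and of 42 collagens and matrix genes, 22 were lower and 7 higher (median -0.15). Cd44, the hyaluronan receptor, was an exception, with changes of -0.66 ± 0.06 and 0.34 ± 0.06. Of 40 cell cycle genes, 21 were lower and 5 higher (median -0.24). E2f1, a factor of S-phase entry, changed by -0.43 ± 0.08 and -1.27 ± 0.08, and Ccnb2, a mitotic cyclin, by -0.35 ± 0.07 and -1.54 ± 0.07. Ccnd2, a G1 cyclin, instead rose by 0.40 ± 0.04 and 1.28 ± 0.04. It was counted as a rise in DPP4_pos alone because its smaller rise in DPP4_neg lay within the bound.

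Of 32 adipocyte genes, 11 were higher and 11 lower, with a median of 0.04, and with equal totals 6 were higher and 17 lower. Pparg, the master factor of adipogenesis, changed by -0.50 ± 0.05 and -1.23 ± 0.05, and the difference was -0.72 ± 0.08 (adjusted p = 4.3e-08). Fabp4, the adipocyte fatty acid binding protein, fell in both (-1.16 ± 0.08 and -1.29 ± 0.08). Its difference of -0.13 ± 0.11 was not called (adjusted p = 0.31, 95% interval -0.36 to 0.10), but Fabp4 was called lower under quantile normalization (-0.49, adjusted p = 0.0011) and with equal totals (-0.39, adjusted p = 0.0037). Of 23 thermogenic genes, 3 were higher, 8 lower and 12 not called. Dio2, which makes active thyroid hormone, went from 5.34, 5.84, 7.84 and 8.12 to 1632, 1474, 1629 and 1461 in DPP4_neg and from 17.0, 34.9, 16.8 and 26.2 to 18587, 18419, 19734 and 19261 in DPP4_pos, a difference of 1.99 ± 0.23 (adjusted p = 1.2e-07). Ucp1, the uncoupling protein of brown fat, had 5 reads in all DPP4_neg vehicle and 5 in all DPP4_pos vehicle libraries. Under isoproterenol its normalized counts were 156, 222, 137 and 133 in DPP4_neg and 69.7, 66.2, 87.7 and 78.9 in DPP4_pos. The difference of -1.24 ± 0.41 (limma adjusted p = 0.013) was not called by edgeR or DESeq2 on the recovered reads (adjusted p = 0.249 and 0.211).

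Some genes rose in both populations to different levels. The serine palmitoyltransferase subunit gene Sptssb had 4 reads in the DPP4_neg and 4 in the DPP4_pos vehicle group, and 232, 269, 239.8 and 196 and 3369.6, 3575, 3630.0 and 3369 normalized counts under isoproterenol. Cxcl2 reached 345, 449, 604 and 425 in DPP4_pos and 4.86, 4.41, 3.15 and 5.25 in DPP4_neg, from 2 and 3 reads under vehicle. DPP4_pos ended higher for both genes, without overlap. Kank4 reached 419, 418, 443 and 447 in DPP4_pos and 98.8, 106, 118 and 91.9 in DPP4_neg. With a larger rise in DPP4_neg, the transcriptional coregulator Cited1 reached 149, 188, 169 and 160.1 there and 28.1, 33.1, 26.3 and 35.7 in DPP4_pos, and for both of the populations the vehicle group had few reads (3 and 12). The adaptor gene Stac2 rose from 33.6, 25.3, 26.3 and 38.6 to 1601, 1821, 1603 and 1716 in DPP4_neg and from 144, 135, 151 and 167 to 982, 936, 893 and 996 in DPP4_pos. For Cited1 and Stac2 the DPP4_neg libraries were the higher ones under isoproterenol. Igfbp5, an IGF binding protein, rose from 3744, 3219, 3220.2 and 3499 to 35494, 35538, 33935 and 36555 in DPP4_neg and from 13983, 13310.4, 12975 and 14945 to 21531, 18731, 20924 and 22130.5 in DPP4_pos, so the lower population became the higher. Falls larger in DPP4_pos were led by the Ras effector Rin2, from 3412, 3419, 3364 and 3324 to 218, 218, 256 and 237 there and from 1061, 1063, 1128 and 986 to 605, 598, 653 and 635 in DPP4_neg, with a difference of -3.10 ± 0.07 (adjusted p = 3.1e-18). Lrrc17, a leucine-rich repeat protein, fell by 0.44 on the log2 scale in DPP4_neg and by 3.36 in DPP4_pos.

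Results for the other lists follow. Counts were 8 higher and 3 lower of 12 Fos and Jun factors, 11 and 4 of 18 genes of ERK feedback, 10 and 4 of 18 glucocorticoid targets, 7 and 3 of 12 hyaluronan genes, and 6 and 1 of 10 genes of metallothioneins and zinc transport. Signalling lists gave 22 and 12 of 40 for the BMP and TGF-beta pathway, 6 and 14 of 32 for the Wnt pathway, 8 and 9 of 24 growth factor receptors, and 18 and 11 of 40 growth factors, which turned to 14 and 16 with equal totals. Of the Wnt pathway, Axin2, a feedback inhibitor, changed by 0.33 ± 0.14 and -1.74 ± 0.14, and Fzd5, a receptor, by -3.12 ± 0.08 and -0.79 ± 0.08. In metabolic lists, 15 of 25 genes of sterol synthesis were higher and 4 lower, which turned to 12 and 10 under quantile normalization and to 10 and 9 with equal totals. Further, 5 of 20 genes of lipolysis and fatty acid use were higher and 10 lower. Mitochondrially encoded genes were higher in 7 and lower in 0 of 10, but higher in 1 under quantile normalization. Their summed counts were low in replicate 3 of DPP4_neg isoproterenol, at 209356 against 282015 to 298105 in the other libraries of that group.

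Progenitor marker lists gave 10 higher and 14 lower of 30 DPP4+ interstitial progenitor markers, 5 and 10 of 22 committed preadipocyte markers, and 1 and 7 of 13 CD142+ progenitor markers. Of the 30 DPP4+ interstitial progenitor markers, 19 rose and 9 fell in DPP4_neg, and 15 rose and 11 fell in DPP4_pos. Pi16 rose by 6.90 ± 0.11 in DPP4_neg, from 45 reads in the vehicle group, and by 5.39 ± 0.11 in DPP4_pos. Its difference was -1.50 ± 0.15, whereas on counts the rise was larger in DPP4_pos. Mean normalized counts of Pi16 went from 8.37 to 1099 in DPP4_neg and from 518 to 21761 in DPP4_pos. Cd55 rose by 5.53 ± 0.05 and 5.99 ± 0.05. In these marker lists, Creb5 moved in opposite directions (-1.21 ± 0.11 and 0.90 ± 0.11), as did Esm1 (-0.55 ± 0.18 and 0.83 ± 0.18). Of the remaining pathway lists, 6 genes were higher and 5 lower of 14 cAMP phosphodiesterases (5 and 8 with equal totals), 10 and 14 of 34 adrenergic receptors and cAMP signalling genes, 7 and 14 of 26 matrix proteases and inhibitors, and 9 and 5 of 21 p53 targets, which turned to 8 and 11 with equal totals. The circadian clock gave 9 and 6 of 18 (8 and 8 with equal totals), renin-angiotensin and vasoactive peptides 6 and 9 of 24, prostaglandin genes 7 and 6 of 16 (5 and 7 with equal totals), and retinoic acid genes 6 and 7 of 16. Rdh10, which makes the precursor of retinoic acid, rose by 0.47 ± 0.06 and 4.04 ± 0.06. Markers of other cell types were few above the filter, with 3 higher and 0 lower of 9 endothelial, 4 and 3 of 14 mural (2 and 7 with equal totals), 0 and 2 of 2 mesothelial, 0 and 2 of 4 Schwann cell and 0 and 2 of 4 skeletal muscle markers, and none called of 1 epithelial marker.

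Promoter matches were available for 10771 tested genes and are descriptions of letters, not of binding. The cAMP response element was present in 3.6% of these promoters and in 16 of 256 (6.25%) among genes that rose in DPP4_pos alone. It was in 4 of 61 (6.56%) of genes down in DPP4_neg and up in DPP4_pos, and in 0.0% to 2.38% of the other classes of opposite or single-population response. In the cAMP and CREB early response list it was in 2 of 24 (8.33%). The short form of this element was in 34.8% of all, 46.9% of genes that rose in DPP4_pos alone and 79.2% of that list (19 of 24). In the other classes of opposite or single-population response, the short form was in 21.2% to 32.3%. It was in 29.2% of the interferon-stimulated genes and 37.0% of the integrated stress response and amino acid genes. The interferon core was in 3.74% of all, in 6 of 66 (9.09%) among genes up in DPP4_neg and down in DPP4_pos, and in 10 of 24 (41.7%) of the interferon-stimulated genes. A CArG box stood in 1.57% of all and in 5 of 42 (11.9%) of those that fell in DPP4_neg alone, Srf among them. In the other classes its share was 1.08% to 6.56%, highest among genes down in DPP4_neg and up in DPP4_pos (4 of 61). The ATF4-C/EBP site was in 2.79% of all and in 9 of 27 (33.3%) of the integrated stress response and amino acid genes. Across the classes of opposite or single-population response its share was 0.0% to 6.67%. The AP-1 site was in 6.39% of all, in 6 of 30 (20.0%) of the genes that rose in DPP4_neg alone and in 4 of 24 (16.7%) of the interferon-stimulated genes. Its share was 4.76% to 6.56% in the other classes, and 4.17% and 7.41% in the other lists searched. NF-kB sites were in 0.455% of all and in 2 of 256 (0.781%) of genes that rose in DPP4_pos alone. No promoter of the other classes or of the lists searched held an NF-kB site. No share was taken for the NF-kB pathway and targets list.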

How the data were processed

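Gene expression was measured by RNA sequencing in 16 libraries, 4 per group. DESeq2 1.6.3, featureCounts 1.4.6, HISAT2 2.0.1 and Trim Galore 0.4.1 are listed in the submitters' processing notes, with GRCm38 and mm10 as builds. No setting, strand rule or annotation is named in the sources used here. The authors deposited a normalized signal per gene and library, which is a read count divided by a size factor, judged from the values. Whole reads were recovered for 100.0% of 280334 values above 0 (within 0.001 of a whole number), and 26 symbols turned into dates were restored. Entries without a symbol (958) held 0.093% of the counts.

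Group means were fitted over all libraries with limma 3.58.1 in R 4.3.3, with a mean-variance trend, on log2(normalized count + 1), and p-values were adjusted by Benjamini-Hochberg over 14005 genes. Low genes have understated changes on this scale. Values are log2 changes ± standard error. On recovered reads, edgeR 4.0.16 (quasi-likelihood) and DESeq2 1.42.0 were alternatives, beside other pseudocounts, filters, scalings, class limits, a replicate block and omission of each library. The equal-total scaling and the omission of both libraries high in interferon genes were chosen after seeing the data. The script was tested on simulated data.

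Members, classes and the 47 gene lists (1159 of 1160 genes found) were chosen with earlier results of these data known. Named genes are 24 fixed genes; per class of opposite directions, the 8 with the largest smaller response; per class of 1 population, the 6 with the largest difference; per direction among shared responses, the 5 with the largest difference; and per list, the 4 called members with the largest difference. The rules for classes and for shared responses required a mean of at least 50 normalized counts, a symbol and no overlap of vehicle and isoproterenol libraries in each responding population. Other list members (Atf4, Asns, Psat1, Mthfd2, Gdf15, Stc2, Ddit3, Hspa8, Hspe1, Actb, Tead1 and the interferon genes Irf7, Isg15 and Usp18) were singled out after their values were seen. Of the genes these rules name, 4 are not reported here. Predicted genes and families with near-identical copies were kept out of those rules. Promoter sequences are from RefSeq.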

Additional observations from a re-analysis of the deposited data

Results flagged for a closer look

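The responses of the populations were tested against each other directly, and 4423 genes were called higher and 4342 lower in DPP4_pos by limma. In 91 genes every condition for a rise in DPP4_neg and a fall in DPP4_pos was met, and in 88 the reverse.

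Single libraries lay far from the other 3 of their group by Dixon's criterion in 17 of 332 groups tested, and chance gives about 1 in 20. In replicate 2 of DPP4_neg isoproterenol, Pdgfra was lowest at 9704 (nearest 10786), and Adipoq was highest at 3336, Acta2 at 72237 and Ahnak2 at 609. In replicate 1 of DPP4_pos vehicle, the macrophage and leukocyte marker sum was highest at 1512. In replicate 4 of DPP4_pos vehicle, Crem was highest at 135, Ucp1 was highest at 1.69 and Kank4 was lowest at 0. Srf was highest in replicate 1 of DPP4_pos vehicle, at 647. In DPP4_pos isoproterenol, Pdgfrb was highest in replicate 1, at 2347 (nearest 2044), and Ifit1 in replicate 3, at 739 (nearest 247). In DPP4_neg isoproterenol, Tgfbi was highest in replicate 4, at 683, and Cxcl1 lowest in replicate 3, at 158. In DPP4_neg vehicle, the highest values were 180.0 for Chst1 (replicate 4), 1.68 for Cxcl2 (replicate 3), 231 for Slc7a11 (replicate 1) and 2.92 for Cited1 (replicate 2).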

How the results depend on the processing

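On recovered reads, edgeR called 8773 and DESeq2 8408 genes. Over 28 settings, 192 of 209 named genes kept the direction and side of the threshold of their difference. With each library scaled to the same total, 2557 genes were higher and 6828 lower, and 58 were down in DPP4_neg and up in DPP4_pos, 159 up and 525 down in DPP4_pos alone, 206 up more and 814 down more in DPP4_pos. Under quantile normalization, 218 rose in DPP4_pos alone and 279 fell more there. With opposite changes of at least 1 and the other population within 0.3, the classes held 26 (up in DPP4_neg, down in DPP4_pos), 10 (the reverse), 105 and 67 (up and down in DPP4_pos alone) and 12 and 22 (in DPP4_neg alone). By adjusted p alone they held 380, 512, 1047, 1438, 312 and 335, in that order.

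Leaving out 1 library at a time gave 8420 to 8699 called genes, 4284 to 4439 higher and 4125 to 4304 lower. The class counts, in the order above, were 83 to 98, 83 to 91, 310 to 342, 215 to 269, 31 to 42 and 45 to 52. Genes up more in DPP4_pos numbered 318 to 340 and in DPP4_neg 57 to 64, genes down more 429 to 512 and 64 to 78, and r was 0.747 to 0.758.

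Directions turned for Rps16 (-0.00803) and CYTB (-0.0654) under quantile normalization, for Adrb1 without DPP4_neg isoproterenol replicate 4 (-0.0773), without DPP4_pos isoproterenol replicate 3 (-0.143) and with equal totals (-0.119), and for Acta2 without both libraries high in interferon genes (0.00176). Over single omissions the Adrb1 interaction (the difference of its responses) ranged from -0.143 to 0.409. The cause was not tested.

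Same-numbered libraries of different groups correlated between -0.231 and 0.131 in their deviations, so they shared little of them. Weak correlations cannot show whether the numbers pair libraries by mouse, sort or culture, which the labels do not say. With a replicate block, 8854 genes were called, and 8735 with a replicate block within each population, against 8765 without, and no class count changed by over 1.5 times. Genes with few reads, such as Adrb1, Ucp1 and Bmp4, limit what depth can show.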
